A study of Mus musculus with 12 samples.

Results

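The genes described here encode structural proteins of the myelin sheath and were chosen by symbol. They are Mbp, Mobp, Mal, Cldn11, Cnp, Mag, Mog, Ermn and Opalin, 9 of the 55809 gene symbols counted in 12 RNA sequencing libraries of sorted mouse brain cells. All 9 passed the filter on low counts in both comparisons of the study. The study's stated aims were to find regulators of Mc4r, the melanocortin 4 receptor gene, in hypothalamic neurons, and to see how neurons of the paraventricular nucleus of the hypothalamus (PVH) differ after loss of Otp, a homeodomain transcription factor gene.

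The libraries formed 4 groups of 3. TOM positive and TOM negative cells were sorted from the hypothalamus of 4-week-old, untreated Mc4r-Cre; Ai14 mice. Cre is made under the control of Mc4r in these mice, and it turns on the red fluorescent protein tdTomato (TOM) of the Ai14 allele. Both groups carry both alleles, and the label is permanent, so a TOM positive cell is one that made Cre at some time. The AAV-Cre and AAV-GFP cells came from the PVH of 26-week-old Otp fl/fl; Ai14 mice, dissected 12 weeks after an adeno-associated virus (AAV) was injected. After AAV-Cre, which recombines the floxed Otp gene and turns on TOM, TOM positive cells were collected. After AAV-GFP, which leaves the floxed alleles intact, GFP positive cells were collected. The sources used here give neither the promoter in each virus nor whether animals were pooled. Nor do the labels tell whether replicate libraries are from different animals, and the p-values therefore reflect the spread among libraries, which can be technical.

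Myelin is the multilayered membrane that oligodendrocytes wrap around axons in the brain. In compact myelin the cytoplasm is squeezed out between membrane layers, which are held together by basic proteins and proteolipids, while cytoplasmic channels, the layer next to the axon and the outer surface keep their own proteins. Oligodendrocytes make these proteins in large amounts once they mature, and neurons do not make myelin. Some myelin mRNAs, that of Mbp above all, are carried out of the cell body into the processes and translated there.

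Library totals ran from 13506018 to 27827853 counts. The targeted gene Otp had 12, 9 and 10 counts in the AAV-Cre libraries, against 91, 102 and 38 in the AAV-GFP libraries, a difference in the direction of the labels that did not pass over all genes (edgeR adjusted p = 0.134). Mc4r itself had 63 counts in TOM positive replicate 1 and 0 in the other 5 TOM libraries. Neuron markers were present in every group but low beside the myelin genes. A list of 12 neuronal genes summed to 464 to 559 CPM, which are counts scaled to a common library total, in TOM positive libraries and to 71.3 to 134 CPM in TOM negative libraries. In the AAV libraries the same 12 genes summed to 2314 to 2776 CPM after AAV-Cre and 1556 to 3060 CPM after AAV-GFP. The 9 myelin genes summed to 37147 to 40239 CPM in TOM positive libraries, against 13904 to 18910 CPM in TOM negative libraries. After AAV-Cre they summed to 29322 to 37828 CPM, and after AAV-GFP to 13393 to 47557 CPM. CPM values were scaled within each pair of groups, so a level in a TOM library and one in an AAV library are set side by side with no test, and age, region, genotype and sort all differ between them.

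The promoters of 4 genes are shown because the results below turn on them. Of the 9 genes, Ermn had the largest fold change in both comparisons and Cnp the smallest in the TOM comparison, and Mobp moved with Mag in one comparison and not in the other. Each sequence is the 250 bases before the annotated start, 5′ to 3′ on the gene's strand, from RefSeq on GRCm38.p6, with motif matches in capitals. The windows are chr2:58052865-58053114 on the minus strand for Ermn, chr7:30914864-30915113 on the minus strand for Mag (1 of 3 windows listed for this gene), chr9:120149492-120149741 on the plus strand for Mobp and chr11:100574689-100574938 on the plus strand for Cnp.
Ermn: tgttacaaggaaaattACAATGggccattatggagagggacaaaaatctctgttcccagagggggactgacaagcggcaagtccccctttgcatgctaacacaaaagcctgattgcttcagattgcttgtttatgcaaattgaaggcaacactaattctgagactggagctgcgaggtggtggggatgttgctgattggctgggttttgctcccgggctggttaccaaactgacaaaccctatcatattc
Mag: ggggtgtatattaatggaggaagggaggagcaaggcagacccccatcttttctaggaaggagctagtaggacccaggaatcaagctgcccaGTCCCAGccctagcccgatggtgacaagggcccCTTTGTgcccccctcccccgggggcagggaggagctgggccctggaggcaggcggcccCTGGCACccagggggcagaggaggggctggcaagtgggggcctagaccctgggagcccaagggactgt
Mobp: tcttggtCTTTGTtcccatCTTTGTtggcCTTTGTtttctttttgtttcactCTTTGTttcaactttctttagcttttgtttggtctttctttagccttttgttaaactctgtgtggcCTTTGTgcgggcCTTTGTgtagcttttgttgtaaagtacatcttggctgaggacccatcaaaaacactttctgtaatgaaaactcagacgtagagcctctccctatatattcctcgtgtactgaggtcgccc
Cnp: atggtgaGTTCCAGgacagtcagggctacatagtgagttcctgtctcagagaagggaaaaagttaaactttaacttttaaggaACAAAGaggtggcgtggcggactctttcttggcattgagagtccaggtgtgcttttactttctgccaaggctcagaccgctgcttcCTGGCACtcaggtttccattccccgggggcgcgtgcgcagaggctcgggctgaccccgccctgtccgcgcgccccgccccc
The motifs searched, on both strands, were CTGGNAC, the core bound by Myrf, a regulator of myelin genes, ACAAAG and ACAATG, cores bound by SOX factors such as Sox10, the E-box CAGCTG, and TATAAA. Windows were found for 8 of the 9 genes. CTGGNAC was found in the windows of 3 genes, Mag, Cnp and Mog, and in 16.1% of all 32851 mouse windows of this length. Each of the 8 genes had 1 window except Mag, with 3, of which only the window shown was counted. The Mag window shown and one that overlaps it held CTGGNAC and ACAAAG, and the window at chr7:30914322-30914571 held none of the motifs. A short stretch just after each start was looked up in annotated transcripts of the gene. It was found for chr7:30914322-30914571 and for every other gene's window, but not for the Mag window shown or the one overlapping it. ACAAAG was found in those of 4 genes, Mag, Mobp, Cnp and Opalin, and in 16.5% of all windows, and the Mobp window held 6 matches, each read as CTTTGT on the strand shown. The other SOX core, ACAATG, was found in the Ermn window alone among the 8 genes, and in 10.7% of all windows. The E-box and TATAAA were found in none of the 8 genes' windows, and in 13% and 12.4% of all windows. The matches shown do not overlap each other, and a match describes letters, not a measured binding site.

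All 9 myelin genes had higher CPM in TOM positive than in TOM negative libraries. CPM are relative to the library total and give no amount of mRNA per cell. Each of the 9 rose in edgeR's quasi-likelihood test, with fold changes between 1.68-fold for Cnp and 7.91-fold for Ermn, and in each the 3 TOM positive libraries lay above the 3 TOM negative ones. Of the 15228 genes tested, 23.9% passed in either direction and 10.4% rose, while 13.4% fell. The 2 groups were free of overlap in 46.4% of genes, made up of 20.8% with TOM positive libraries above and 25.6% with them below. The median log2 fold change was 1.40 over the 9 genes and -0.02 over all genes tested. Positions below follow GENCODE vM30, the annotation named for the AAV libraries, which is on a later assembly than that of the promoter windows above. In bulk libraries more oligodendrocytes and more myelin mRNA per cell cannot be told apart.

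**Figure D1:**
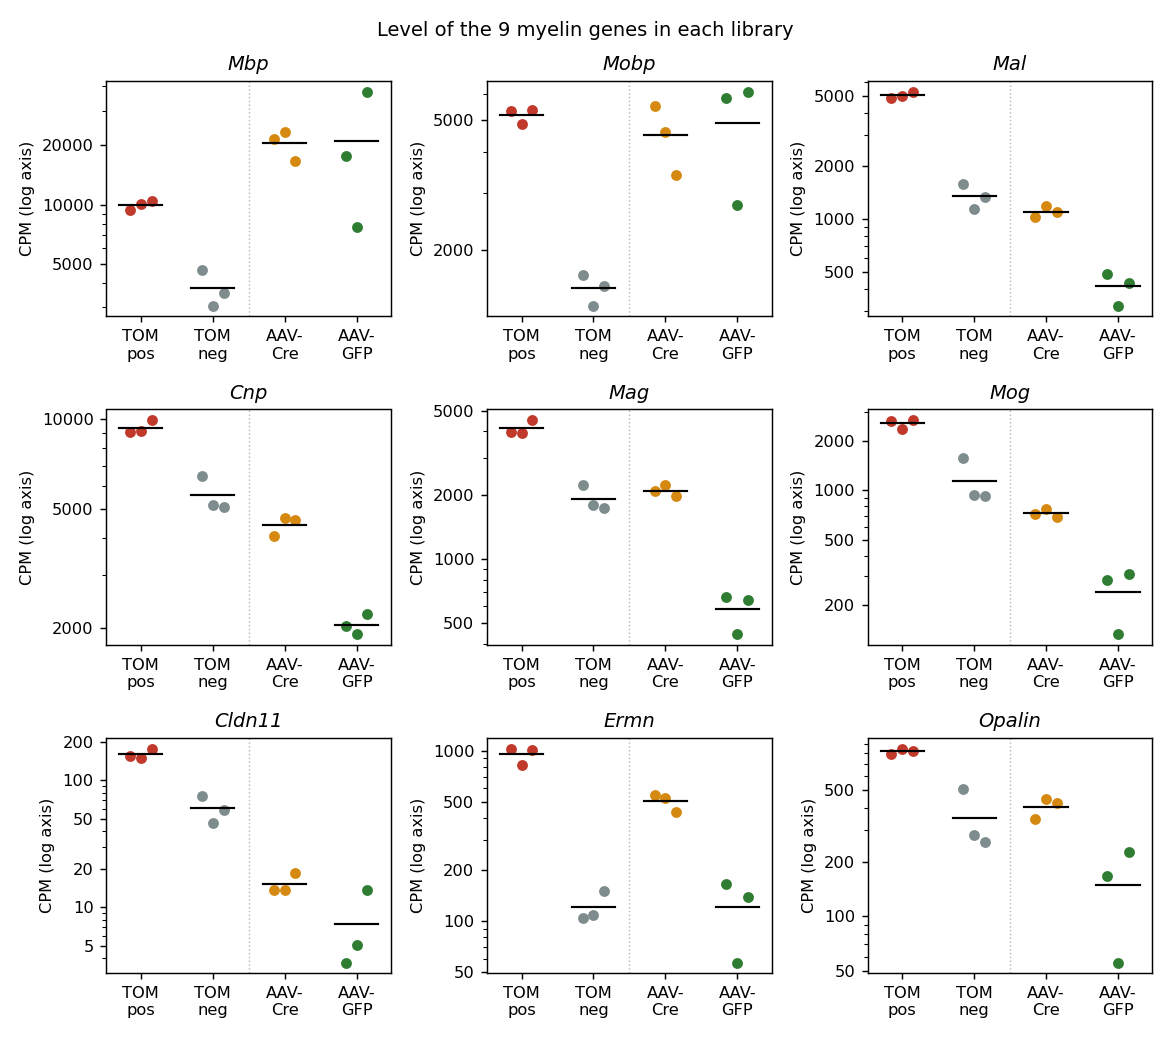
Level of each of the 9 myelin genes in each library, as CPM on a log axis, with TOM positive (pos), TOM negative (neg), AAV-Cre and AAV-GFP libraries from left to right, points for libraries and a line at the group mean (n = 3). TOM positive points lie above TOM negative points in all 9 panels, while AAV-Cre and AAV-GFP points overlap for Mbp and Mobp, and the dotted line separates libraries that were scaled separately.

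Among the genes of compact myelin, Mbp (chromosome 18, 82493271 to 82603762, plus strand) encodes the basic protein that zips the cytoplasmic faces of the membrane together. It had 9377, 10050 and 10461 CPM in TOM positive libraries, against 4675, 3059 and 3557 CPM in TOM negative libraries. All 3 TOM positive libraries stood far above the TOM negative ones and close to each other. The log2 fold change was 1.40 ± 0.18 (SE; edgeR adjusted p = 0.00216). The counts of this symbol take in every transcript of the locus, including the Golli forms, which other cell types also make.

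Mobp (chromosome 9, 119978773 to 120010550, plus strand) encodes a small basic protein of compact myelin, and its mRNA too is found in oligodendrocyte processes. Its level was 5330.5, 4866 and 5366 CPM in TOM positive libraries and 1687, 1354 and 1561 CPM in TOM negative libraries, a log2 fold change of 1.76 ± 0.14 (adjusted p = 0.000332 in edgeR). The libraries within each group differed little, with a coefficient of variation (CV) of 5.38% among TOM positive and 11.0% among TOM negative libraries. Mal (chromosome 2, 127475146 to 127498615, minus strand) encodes a proteolipid of lipid rafts that takes part in sorting proteins to myelin. It had 4865, 5004 and 5290 CPM in TOM positive libraries, against 1584, 1137 and 1334 CPM in TOM negative libraries. The change of 1.90 ± 0.16 on the log2 scale was second in size among the 9 genes (edgeR adjusted p = 0.000409).

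Cldn11 (chromosome 3, 31204069 to 31218473, plus strand) encodes the claudin that forms tight junctions between myelin layers. It had the fewest counts of the 9 genes, with 155, 149 and 178 CPM in TOM positive libraries and 75.8, 46.6 and 58.6 CPM in TOM negative libraries. All 3 TOM positive values stood above the TOM negative ones, by a log2 fold change of 1.41 ± 0.22 (adjusted p = 0.00476 in edgeR).

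Cnp and Mag lie outside compact myelin. Cnp (chromosome 11, 100465730 to 100482555, plus strand) encodes an enzyme that keeps the cytoplasmic channels of the sheath open, and it changed least of the 9 genes. Its level was 9040, 9110 and 9923 CPM in TOM positive libraries and 6474, 5175 and 5094 CPM in TOM negative libraries, a log2 fold change of 0.75 ± 0.14 (adjusted p = 0.01005 in edgeR). Of its 3639 annotated exon bases, 463 (12.7%) are shared with Dnajc7 on the other strand, a gene with 1453 to 4534 counts in the TOM libraries, where Cnp had at least 106886. Mag (chromosome 7, 30598601 to 30614298, minus strand) encodes a sialic acid-binding adhesion protein of the layer that faces the axon. It had 3959, 3914 and 4516 CPM in TOM positive libraries, against 2230, 1801 and 1740 CPM in TOM negative libraries. It rose by 1.10 ± 0.15 on the log2 scale (edgeR adjusted p = 0.00269).

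Mog (chromosome 17, 37321635 to 37334290, minus strand) encodes an immunoglobulin-like protein on the outermost surface of the sheath. It had 2634, 2382 and 2677 CPM in TOM positive libraries and 1575, 940 and 921 CPM in TOM negative libraries, with TOM negative replicate 1 apart from the other two. The rise was 1.16 ± 0.23 on the log2 scale (edgeR adjusted p = 0.0114).

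Ermn and Opalin are oligodendrocyte proteins of the later stages of maturation. Ermn (chromosome 2, 57935125 to 57942876, minus strand) encodes an actin-associated cytoskeletal protein, and its level was 1026, 821 and 1004 CPM in TOM positive libraries, against 104, 108 and 149 CPM in TOM negative libraries. This was the largest change of the 9, a log2 fold change of 2.98 ± 0.20 (adjusted p = 0.000185 in edgeR). Opalin (chromosome 19, 41050149 to 41065552, minus strand) encodes a transmembrane glycoprotein. It had 797, 850 and 824 CPM in TOM positive libraries and 505, 283 and 258 CPM in TOM negative libraries. Its TOM positive libraries were the most uniform of any gene and group here, with a CV of 3.2%, while its TOM negative libraries had one of 38.9%. Opalin rose by 1.24 ± 0.26 on the log2 scale (edgeR adjusted p = 0.0143).

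TOM negative replicate 1 held the highest TOM negative level of 8 of the 9 genes, Ermn being the exception. Without TOM negative replicate 2, 6 of the 9 genes passed, and Mog, Cnp and Opalin did not (edgeR adjusted p of 0.0586, 0.0536 and 0.0702), while 1511 genes of the whole table passed in place of 3635. In the other fits with 1 library left out, all 9 passed.

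**Figure D2:**
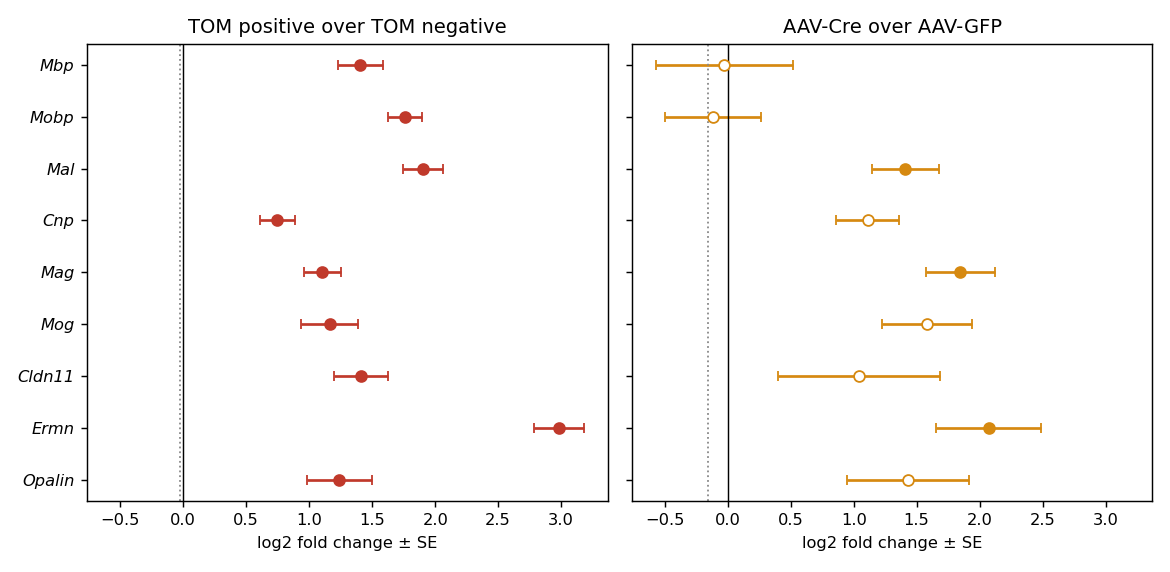
Log2 fold change with its standard error for each of the 9 genes, TOM positive over TOM negative on the left and AAV-Cre over AAV-GFP on the right, each from edgeR on 3 against 3 libraries, with filled points for an adjusted p under 0.05 and a dotted line at the median of all genes tested. All 9 points are filled on the left, where Ermn at 2.98 is farthest from 0, and Mal, Mag and Ermn are filled on the right, where Mbp and Mobp sit at -0.03 and -0.12.

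Most genes listed for the myelin sheath also rose, but the lists were chosen with earlier results of these data known. Of 20 other myelin membrane genes tested, 16 rose and 0 fell in TOM positive cells, where 10.4% of all genes rose. Fold changes were positive for 19 of them and negative for 1, with a median of 1.12 on the log2 scale. Tspan2, a tetraspanin gene, rose by 2.55 ± 0.20 and Gjc3, a connexin gene, by 2.75 ± 0.23 on the log2 scale (edgeR adjusted p of 0.000358 and 0.000421). Of 10 genes for myelin lipids 6 rose and 0 fell, with 8 positive and 2 negative fold changes and a median of 0.87. Among them were Fa2h, which hydroxylates the fatty acids of myelin lipids, at 1.52 ± 0.18, and Ugt8a, which makes galactosylceramide, at 2.62 ± 0.33.

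Genes of oligodendrocyte stages were counted in the same comparison. Of 9 tested genes of newly formed oligodendrocytes 8 rose, with a median log2 fold change of 1.65, including Enpp6 at 2.59 ± 0.19 and Bcas1 at 1.94 ± 0.17 (edgeR adjusted p of 0.000295 and 0.000521). Of 13 genes listed for mature oligodendrocytes 6 rose and 0 fell, with a median of 0.59, among them Adamts4, a protease gene, at 2.07 ± 0.19. Of 13 regulators 7 rose and 0 fell, with a median of 1.05, including Tcf7l2 at 1.65 ± 0.22 and St18 at 2.89 ± 0.29. Of 12 precursor genes 4 rose, led by Tnr at 3.00 ± 0.26, and 1 fell, Cspg5 at -0.90 ± 0.14. Apart from Cspg5, no gene of these lists was lower in TOM positive cells at an unadjusted p under 0.05 or with DESeq2. Several of the lists share genes with each other, and other cell types use some of their genes.

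The myelin of peripheral nerves is made by Schwann cells, and its genes were counted separately. Of 9 listed genes 4 were tested, and with edgeR 2 fell in TOM positive cells and 0 rose, also at an unadjusted p under 0.05 and with DESeq2. Those that fell were Egr2, a transcription factor gene that immune cells also induce, at -2.91 ± 0.17 and Pmp22 at -1.92 ± 0.23 on the log2 scale. Pmp2, which encodes a lipid-binding protein of peripheral myelin, had 0 counts in all 12 libraries of the study.

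Markers of other cell types moved between the same libraries. Of 12 neuron markers 6 rose with edgeR, and 10 at an unadjusted p under 0.05 or with DESeq2. All 12 had positive fold changes, with a median of 2.93 on the log2 scale. Of 12 microglia markers all 12 fell. These summed to 446 to 1027 CPM in TOM positive libraries, against 25657 to 30361 CPM in the TOM negative ones. Astrocyte markers summed to 11942 to 16477 CPM in TOM positive libraries and 23536 to 24819 CPM in TOM negative libraries, where 4 of 12 fell. Blood markers summed to 224 to 450 CPM in TOM positive libraries and 22620 to 51418 CPM in TOM negative libraries, with 7 of 8 genes lower by the test. Endothelial markers summed to 0.170 to 78.8 CPM in TOM positive libraries and 441 to 606 CPM in TOM negative libraries, and 4 of 10 fell. Ependymal and tanycyte markers summed to 710 to 1330 CPM in TOM positive libraries and 1935 to 2585 CPM in TOM negative libraries, with 3 of 8 tested lower. Mural and fibroblast markers overlapped, at 22.8 to 52.0 CPM in TOM positive and 42.0 to 113 CPM in TOM negative libraries, with 2 of 8 tested lower. Genes with at least 1 count numbered 16011 to 18160 in TOM positive libraries, below the 18453 to 19023 of the TOM negative group. Transcripts of the mitochondrial genome took 0.614 to 0.984% of TOM positive counts and 0.228 to 0.270% of TOM negative counts. The part of these differences in the change of the myelin genes was not tested.

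After AAV-Cre, 7 of the 9 myelin genes stood above AAV-GFP, and Mbp and Mobp did not. With edgeR, Mag, Mal and Ermn rose and 0 fell, while Mog, Cnp, Opalin, Cldn11, Mbp and Mobp did not pass. At an unadjusted p under 0.05, and also with DESeq2, 6 of the 9 genes were higher after AAV-Cre and 0 lower, the 6 being Mag, Mal, Ermn, Mog, Cnp and Opalin. Over all 15408 genes tested 2.6% passed in either direction, where 0.63% rose and 1.97% fell. In 7 of the 9 genes AAV-Cre and AAV-GFP libraries were free of overlap, each with AAV-Cre above, against 28.5% of all genes, of which 9.85% had AAV-Cre above and 18.6% below. The median log2 fold change was 1.41 over the 9 genes and -0.16 over all genes tested. None of the 3 calls held in any of the 6 fits with 1 library left out, in which the whole table had 0 to 296 calls in place of 400, and the Ermn call was also lost with robust estimation of the dispersion. Without AAV-GFP replicate 1 or 3 no gene of the table passed, so every other call named below for the AAV libraries is lost there as well.

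Mag had the call with the smallest p. It had 2090, 2232 and 1978 CPM in AAV-Cre libraries, against 667, 444 and 641 CPM in AAV-GFP libraries. The AAV-Cre libraries were close to each other and far above the AAV-GFP ones, and the log2 fold change was 1.85 ± 0.27 (edgeR adjusted p = 0.0258, and up to 0.135 with 1 library left out). Mal had 1022, 1184 and 1090 CPM in AAV-Cre libraries and 488, 321 and 431 CPM in AAV-GFP libraries, a log2 fold change of 1.41 ± 0.27 (adjusted p = 0.0433 in edgeR, and up to 0.138). Ermn had 546, 528 and 439 CPM in AAV-Cre libraries, against 166, 56.8 and 137 CPM in AAV-GFP libraries. The log2 fold change of 2.07 ± 0.41 was the largest of the 9 here as in the TOM comparison, and its edgeR adjusted p of 0.04997 lay at the threshold.

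Cnp and Mog came next. Cnp had 4063, 4673 and 4586 CPM in AAV-Cre libraries and 2039, 1908 and 2222 CPM in AAV-GFP libraries, and the AAV-GFP libraries were closer together for it than for any other of the 9 genes, with a CV of 7.67%. Its log2 fold change of 1.11 ± 0.25 did not pass (edgeR adjusted p = 0.0556). Dnajc7, the partner on its other strand, had 1764 to 4089 counts in the AAV libraries, where Cnp had at least 26332. Mog had 714, 772 and 685 CPM in AAV-Cre libraries, against 284, 133 and 308 CPM in AAV-GFP libraries, a log2 fold change of 1.58 ± 0.36 (adjusted p = 0.0556 in edgeR). Opalin and Cldn11 had wider AAV-GFP groups. Opalin had 345, 446 and 423 CPM in AAV-Cre libraries and 167, 55.4 and 228 CPM in AAV-GFP libraries, at 1.43 ± 0.49 on the log2 scale (edgeR adjusted p = 0.166). Cldn11 had only 220, 202 and 273 counts in AAV-Cre libraries and 71, 70 and 194 in AAV-GFP libraries. In CPM the lowest AAV-Cre value and the highest AAV-GFP value were 13.7 each when rounded, and the log2 fold change was 1.04 ± 0.64 (edgeR adjusted p = 0.442).

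Mbp and Mobp set themselves apart from the other 7 by their levels after AAV-GFP. Mbp had 21573, 23378 and 16709 CPM in AAV-Cre libraries, against 17743, 7723 and 37471 CPM in AAV-GFP libraries. The AAV-GFP libraries spanned a 4.85-fold range that took in all 3 AAV-Cre values. The log2 fold change was -0.03 ± 0.54, with a 95% interval of -1.30 to 1.24 (edgeR adjusted p = 0.986), so the libraries leave changes of either direction possible. Mobp had 5526, 4601 and 3393 CPM in AAV-Cre libraries and 5825, 2748 and 6105 CPM in AAV-GFP libraries. The log2 fold change was -0.12 ± 0.38, with a 95% interval of -1.01 to 0.77 (edgeR adjusted p = 0.914). Both signs turned under other settings, to 0.15 for Mbp and 0.04 for Mobp on library totals without scaling factors.

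Within the AAV-GFP group, replicate 2 held the lowest level of 8 of the 9 genes, Cldn11 being the exception, and replicate 3 the highest level of 6. Replicate 3 also had 7.20% of its counts from the mitochondrial genome, against 2.63% and 1.44% in AAV-GFP replicates 1 and 2 and 1.64 to 2.33% in AAV-Cre libraries. As a share of all counts, the 9 genes took 3.81%, 3.88% and 3.16% in AAV-Cre libraries and 2.75%, 1.27% and 4.20% in AAV-GFP libraries. In TOM positive libraries the shares were 4.09%, 4.08% and 4.35%, and in TOM negative libraries 1.68%, 1.25% and 1.39%. The 95% Wilson interval of each share was within 0.00998 percentage points of it. Such an interval covers the counting error of reads only, and in the AAV-GFP group the spread between libraries was far wider. Without mitochondrial counts the mean shares were 3.69% ± 0.399 in AAV-Cre and 2.88% ± 1.62 in AAV-GFP libraries (SD, n = 3 each).

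Of the 20 other myelin membrane genes, 5 rose and 0 fell after AAV-Cre, with a median log2 fold change of 1.33. Gpr37, a receptor gene of oligodendrocytes, averaged 675 ± 42.0 CPM in AAV-Cre and 179 ± 9.15 CPM in AAV-GFP libraries (SD, n = 3 each), and rose by 1.92 ± 0.23 on the log2 scale (edgeR adjusted p = 0.0202). Tppp, a microtubule-organizing protein gene, was at 2.04 ± 0.31 (edgeR adjusted p = 0.0261). Of 10 lipid genes 4 rose, including Fa2h at 1.78 ± 0.26 and Ugt8a at 1.90 ± 0.29, with a median of 1.26. At an unadjusted p under 0.05, 16 of the 20 membrane genes were higher and 0 lower, and 7 of the 10 lipid genes were higher and 1 lower, and with DESeq2 14 and 6 rose and 0 fell.

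Of 13 genes listed for mature oligodendrocytes 2 rose, Adamts4 at 2.37 ± 0.30 and Hapln2 at 1.85 ± 0.35, with a median of 1.29. Of 9 tested genes of newly formed cells 2 rose, Enpp6 at 1.79 ± 0.29 and Nfasc at 1.91 ± 0.36, with a median of 0.19. None of 13 regulators passed with edgeR. Their fold changes were positive for 7 and negative for 6, with a median of 0.19 and a range from -1.43 to 2.03 on the log2 scale. Among them Myrf, the regulator for which CTGGNAC was searched above, was at 1.96 ± 0.59 and Sox10 at 1.72 ± 0.56 (edgeR adjusted p of 0.125 and 0.153). None of 12 precursor genes passed with edgeR, where 8 were positive and 4 negative, with a median of 0.67. At an unadjusted p under 0.05, 4 regulators were higher and 0 lower after AAV-Cre, and 3 precursor genes were higher and 1 lower. With DESeq2, 4 regulators rose, and of the precursor genes 2 rose and 1 fell. By either measure, 6 genes of mature and 2 of newly formed oligodendrocytes were higher after AAV-Cre and 0 lower.

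Other cell types differed between the AAV groups too. Microglia markers summed to 5608 to 10898 CPM in AAV-Cre and 2818 to 5133 CPM in AAV-GFP libraries, and 1 of 12 rose, Csf1r, a growth factor receptor gene, at 1.51 ± 0.27 on the log2 scale. Ependymal and tanycyte markers summed to 975 to 1479 CPM in AAV-Cre and 4097 to 5072 CPM in AAV-GFP libraries, with 5 of 9 lower by the test, and endothelial markers to 26.0 to 37.9 CPM in AAV-Cre and 277 to 503 CPM in AAV-GFP libraries, with 1 of 9 tested lower. Blood markers summed to 26.7 to 88.2 CPM in AAV-Cre and 715 to 4701 CPM in AAV-GFP libraries, with 2 of 6 tested lower. Mural and fibroblast markers summed to 19.1 to 36.7 CPM in AAV-Cre and 86.2 to 104 CPM in AAV-GFP libraries, with 1 of 7 tested lower. Genes with at least 1 count numbered 14747 to 16988 in AAV-Cre and 20778 to 23902 in AAV-GFP libraries, with no overlap. Neuron markers, with 0 of 12 past the test in edgeR or DESeq2 and 1 higher at an unadjusted p under 0.05, are given above. Astrocyte markers overlapped, at 10776 to 13765 CPM in AAV-Cre and 9922 to 23302 CPM in AAV-GFP libraries. Of 5 tested genes of peripheral myelin 1 rose, Egr2 at 2.58 ± 0.36 on the log2 scale. The part of these differences in the values of the myelin genes was not tested.

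The makeup of the 9-gene sum was set side by side in the TOM and AAV libraries. For each gene except Mobp and Ermn, its share of the sum in the 6 TOM libraries did not overlap with that in the 6 AAV libraries. Mbp took 26.1% of the 9-gene counts in TOM positive libraries and 23.7% in TOM negative ones, but 59.6% in AAV-Cre and 67.1% in AAV-GFP libraries. Cnp took 24.5% in TOM positive libraries and 35.4% in TOM negative ones, against 13.1% in AAV-Cre and 8.79% in AAV-GFP libraries. Mal made up 13.2% in TOM positive libraries and 8.55% in TOM negative ones, against 3.23% in AAV-Cre and 1.69% in AAV-GFP libraries. The Cldn11 share was 0.420% in TOM positive libraries and 0.378% in TOM negative ones, but 0.0461% in AAV-Cre and 0.0267% in AAV-GFP libraries. Mag, Mog and Opalin also had lower shares in the AAV libraries, and in AAV-Cre libraries their shares were above those in AAV-GFP libraries without overlap. For Mag the shares were 10.8% in TOM positive, 12.2% in TOM negative, 6.16% in AAV-Cre and 2.37% in AAV-GFP libraries. For Mog they were 6.72% in TOM positive, 7.12% in TOM negative, 2.12% in AAV-Cre and 0.891% in AAV-GFP libraries. For Opalin they were 2.16% in TOM positive, 2.16% in TOM negative, 1.19% in AAV-Cre and 0.501% in AAV-GFP libraries. Ermn, the gene with the largest fold change, took 2.49% in TOM positive libraries and 0.780% in the TOM negative group, with no overlap, and 1.47% in AAV-Cre and 0.439% in AAV-GFP libraries. Mobp took 13.6% in TOM positive libraries and 9.77% in the TOM negative group, and 13.0% in AAV-Cre and 18.2% in AAV-GFP libraries, where the AAV groups overlapped. These shares are ratios within a library and do not depend on the scaling. Age, region, genotype and sort cannot be told apart as their source, nor can counting, since how the TOM libraries were counted is not stated.

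**Figure D3:**
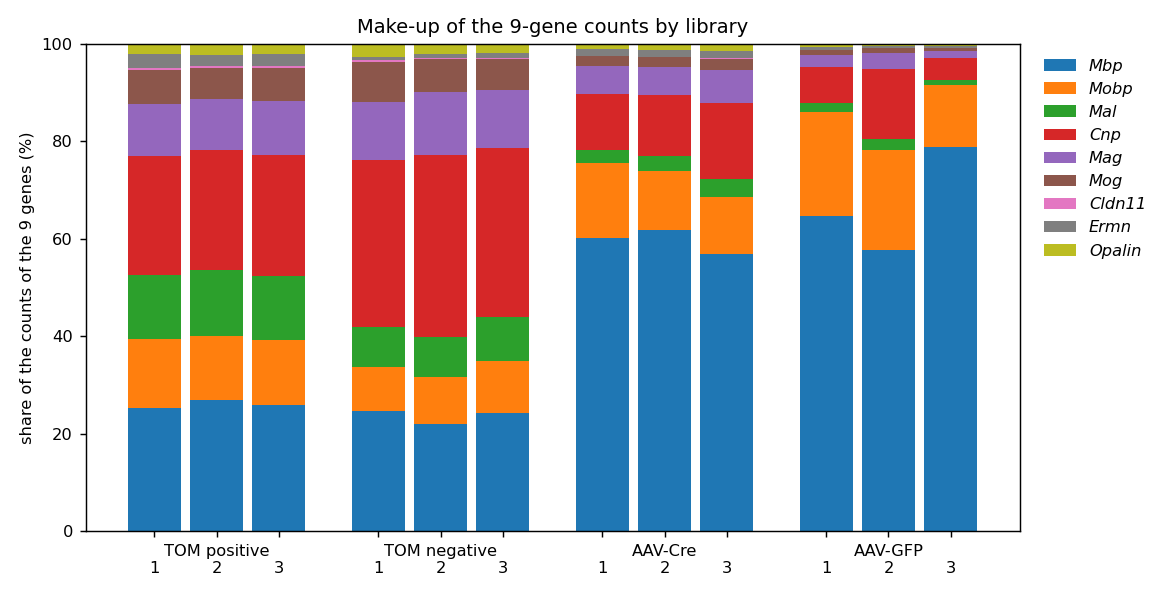
Share of the summed counts of the 9 myelin genes that each gene took, in percent, in each of the 12 libraries, with groups in the order TOM positive, TOM negative, AAV-Cre and AAV-GFP. Mbp fills 22.0 to 27.1% of the bars of the TOM libraries and 57.0 to 78.8% of those of the AAV libraries, where Cnp, Mal and Mog are narrower.

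Per kilobase of annotated exon, which allows levels of different genes to be ordered, Cnp was highest in the TOM libraries and Mbp in the AAV libraries. The exon lengths are those given for the AAV libraries. Whether they hold for the TOM counts is not known, since the annotation used there is not stated. In TOM positive libraries Cnp averaged 2571 CPM per kilobase, followed by Mal at 1819, Mog at 1505, Mbp at 1176 and Mag at 1014. Mobp at 757, Opalin at 280, Ermn at 262 and Cldn11 at 85.8 came after them. Of these neighbours, Mbp and Mag overlapped between libraries, as did Opalin and Ermn. In TOM negative libraries Cnp was again first at 1534 CPM per kilobase, then Mog, Mal, Mag and Mbp between 672 and 444, each overlapping the next. Mobp at 224 and Opalin at 118 followed without overlap, and Ermn at 33.1 and Cldn11 at 32.3 overlapped at the low end.

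In AAV-Cre libraries Mbp averaged 2427 CPM per kilobase, Cnp 1220 and Mobp 658. Mag at 516 overlapped Mobp, Mog at 425 overlapped Mal at 396, and Ermn at 139 overlapped Opalin at 137. In AAV-GFP libraries Mbp averaged 2477 CPM per kilobase, Mobp 714 and Cnp 565, and the last pair overlapped. Mal, Mag and Mog followed at 149, 143 and 142 with overlap, then Opalin at 51.0 and Ermn at 33.0, also overlapping. Cldn11 was last in both AAV groups, at 8.23 CPM per kilobase in AAV-Cre and 3.99 in AAV-GFP libraries. The exon length takes in every annotated exon of a gene, so a gene with many alternative exons, such as Mbp, has a lower value per kilobase than its main transcript alone would give.

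Ratios of counts between genes of the same library show the same differences with no scaling. In all, 10 ratios were taken in both comparisons, chosen after the values were seen, and not all are given here. With 3 against 3 libraries the exact two-sided permutation test cannot give a p below 0.1, so none could pass. Mobp to Mag was 1.35, 1.24 and 1.19 in TOM positive libraries, against 0.757, 0.752 and 0.897 in TOM negative libraries. After AAV-Cre the same ratio was 2.64, 2.06 and 1.72, against 8.73, 6.19 and 9.52 after AAV-GFP. Mobp was thus higher relative to Mag in TOM positive than in TOM negative cells, and lower relative to Mag after AAV-Cre than after AAV-GFP, without overlap in either case (exact permutation p = 0.1 for both).

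Mbp to Mag went the same way. It was 2.37, 2.57 and 2.32 in TOM positive libraries and 2.10, 1.70 and 2.04 in TOM negative libraries, and 10.3, 10.5 and 8.45 in AAV-Cre and 26.6, 17.4 and 58.4 in AAV-GFP libraries. Mbp to Mobp, the pair whose mRNAs are found in processes, was 1.76, 2.07 and 1.95 in TOM positive libraries and 2.77, 2.26 and 2.28 in TOM negative libraries, and its AAV groups overlapped, at 3.90, 5.08 and 4.92 in AAV-Cre libraries and 3.05, 2.81 and 6.14 in AAV-GFP ones. Mag to Mog overlapped in both comparisons, with 1.503, 1.64 and 1.69 in TOM positive, 1.42, 1.92 and 1.89 in TOM negative, 2.93, 2.89 and 2.89 in AAV-Cre and 2.35, 3.35 and 2.09 in AAV-GFP libraries. Mag to Cnp overlapped in neither. It was higher by 0.355 on the log2 scale in TOM positive libraries and by 0.757 in AAV-Cre libraries (exact permutation p = 0.1 for both).

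Ermn to Cnp, the genes with the largest and smallest change in the TOM comparison, was 0.114, 0.0902 and 0.101 in TOM positive libraries, against 0.0160, 0.0208 and 0.0293 in TOM negative libraries. The difference was 2.24 ± 0.27 on the log2 scale (exact permutation p = 0.1). After AAV-Cre it was 0.134, 0.113 and 0.0957, against 0.0813, 0.0298 and 0.0619 after AAV-GFP, a difference of 1.09 ± 0.46 (exact permutation p = 0.1). Mal to Cnp was 0.538, 0.549 and 0.533 in TOM positive libraries, against 0.245, 0.220 and 0.262 in TOM negative libraries. In the AAV libraries that ratio overlapped between groups, at 0.252, 0.253 and 0.238 in AAV-Cre libraries and 0.239, 0.168 and 0.194 in AAV-GFP ones.

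**Figure D4:**
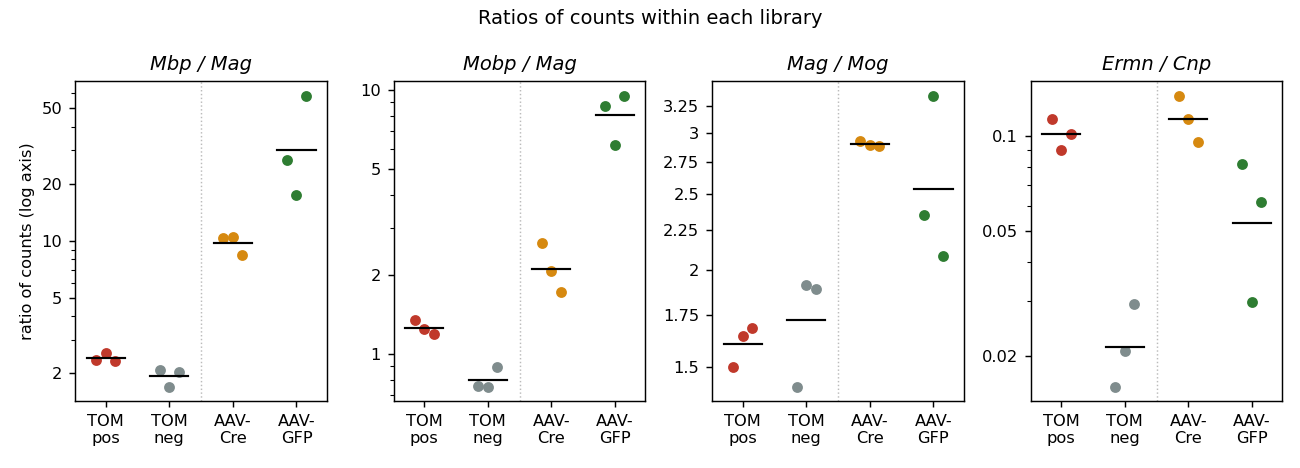
Ratio of counts of 4 gene pairs within each library, on log axes, with TOM positive (pos), TOM negative (neg), AAV-Cre and AAV-GFP libraries from left to right and a line at the group's geometric mean (n = 3). Mobp to Mag is higher in TOM positive than in TOM negative libraries and lower in AAV-Cre than in AAV-GFP libraries, Ermn to Cnp is higher in the first group of each pair, and Mag to Mog overlaps in both.

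Across all 12 libraries the 9 genes did not vary as one. Likeness was taken as the root mean square difference of log2 CPM, after each gene's mean was subtracted, where 0 means the same pattern. Among the 36 pairs it ran from 0.321 for Mag and Cnp and 0.336 for Mog and Mal to 2.51 for Mbp and Cldn11, with a median of 1.07. Against the mean profile of the 9 genes, Opalin at 0.307, Mag at 0.339 and Cnp at 0.371 were the closest of the 9. Each of the 9 is part of that mean, so some closeness to it is built in. Mbp at 1.40 was as far from it as an ordinary gene, since the median over 13975 genes was 1.35. These values rest on 12 libraries in 4 groups that share a group's sort and a table's scaling, so they describe these libraries and carry no test.

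The 5 other genes whose pattern was closest to that mean were Omg at 0.187, Chn2 at 0.264, Grb14 at 0.272, Polr3e at 0.273 and Cerox1 at 0.278. Omg encodes a glycoprotein of oligodendrocytes and myelin that inhibits neurite growth. It averaged 619 ± 39.8 CPM in TOM positive libraries and 284 ± 34.2 CPM in TOM negative libraries, and 357 ± 31.0 CPM in AAV-Cre and 157 ± 72.9 CPM in AAV-GFP libraries (SD, n = 3 each). Chn2, which encodes a GTPase-activating protein for Rac, averaged 380 ± 39.4 CPM in TOM positive libraries and 110 ± 26.0 CPM in TOM negative libraries, and 130 ± 32.6 CPM in AAV-Cre and 59.2 ± 11.6 CPM in AAV-GFP libraries. For both genes the higher group of each pair lay wholly above the lower one. Omg and Chn2 were picked for a pattern close to that mean, so this separation can follow from the choice and is no separate result. Of all genes tested, 20.8% had TOM positive libraries wholly above TOM negative ones, and 9.85% had AAV-Cre libraries wholly above AAV-GFP ones.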

How the data were processed

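Libraries were made from sorted cells with a SMART-Seq kit, per the labels' protocols. No protocol describes molecular identifiers, so the Wilson intervals cover the counting of reads and not that of molecules. The authors deposited raw counts, whole numbers of reads for each gene symbol. The submitters' processing notes name FastQC, Trim Galore, STAR, featureCounts and mm10. For the AAV libraries the authors counted with featureCounts 2.0.1 on GENCODE vM30, without strand, per the file headers, which also give the exon length of each gene. How the TOM libraries were counted is not stated in the sources used here. All 6 single AAV files matched their columns in the joint table.

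The 6 libraries of a comparison were fitted with edgeR 4.0.16 (R 4.3.3), using TMM scaling, filterByExpr (minimum count 10) and the quasi-likelihood test, two-sided, with Benjamini-Hochberg adjustment over all genes tested and a threshold of 0.05. CPM used the TMM-scaled totals, and log2 CPM a prior count of 2. The SE of a fold change came from the F statistic. The alternatives were RLE size factors, unscaled totals, no filter, a replicate block, DESeq2 1.42.0, mitochondrial genes removed, robust dispersion and each library left out. The fits were tested on simulated data.

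The genes, the marker lists and the ratios were chosen with earlier results of these data known. Genes named beside the 9 are Mc4r, Otp, the 3 smallest p of each oligodendrocyte or myelin list, the 2 smallest p of each other list and the 5 most alike in pattern. Not every gene taken by the rule is reported here, and others are summarised by their lists. Pmp2 was named because it marks peripheral myelin, and Dnajc7 because it overlaps Cnp.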

Additional observations from a re-analysis of the deposited data

How the results depend on the processing

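For TOM positive against TOM negative cells, the 9 genes kept their direction in the 13 other settings tried. Of the whole table, 1987 genes passed with a replicate block (899 rose and 1088 fell). With 1 library left out, 1511 to 3547 passed, 630 to 1482 rose and 881 to 2065 fell, the low values without TOM negative replicate 2, and 6 to 9 of the 9 genes rose. On unscaled totals 2204 genes rose and 1532 fell, against 1589 and 2046, and the median of all genes was 0.24 in place of -0.02.

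For AAV-Cre against AAV-GFP cells, 712 genes passed without the filter (160 rose and 552 fell), 0 with a replicate block (0 rose and 0 fell, 0 of the 9 genes) and 1531 with DESeq2 (562 rose and 969 fell, 6 of the 9 genes). With 1 library left out, 0 to 296 passed, 0 to 47 rose and 0 to 253 fell, and 0 of the 9 genes passed. The count was 122 without AAV-Cre replicate 2 and 0, 2 and 0 without AAV-GFP replicates 1, 2 and 3. Mbp turned to 0.013 with RLE size factors or DESeq2, 0.15 on unscaled totals and 0.24 with the block, and ran from -0.44 to 0.78 with 1 library left out. Mobp turned to 0.038 on unscaled totals and ran from -0.42 to 0.16. The median of all genes was -0.0018 on unscaled totals, -0.61 without the filter and -0.27 with the block. The cause of these shifts was not tested.

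Same-numbered libraries were little alike in their deviations from the group means, but 3 libraries per group cannot settle whether the numbers mark pairs. The correlation of deviations between same-numbered libraries lay between -0.07 and 0.0246, and 1 of the 6 pairs, TOM replicate 3, correlated best with its own number. Cnp did not pass with the replicate block in the TOM comparison (edgeR adjusted p = 0.051). Depth bears most on Cldn11, which had 70 to 273 counts in the AAV libraries.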
